A study of Oncorhynchus mykiss with 32 samples.

Results

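The clones described here carry cDNAs for enzymes that move amino groups and 4-carbon acids through the liver: mitochondrial aspartate aminotransferase (GOT2), 4-aminobutyrate aminotransferase, pyruvate carboxylase and cytoplasmic malate dehydrogenase. They were chosen by annotation, from the study's own lists of clones that differed between diets or lines, and they number 5 of the 9023 trout clones on the array. All 5 had a value on each of the 32 arrays and were among the 7763 clones tested. GOT2 is represented by clones tcad0005.c.22 and 1RT69F18_D_C09. 4-Aminobutyrate aminotransferase is clone 1RT38G10_C_D05, pyruvate carboxylase is clone 1RT75M17_A_G09, and malate dehydrogenase is clone 1RT158K12_C_F06.

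The samples were livers of rainbow trout (Oncorhynchus mykiss) from a lean-muscle line (L) and a fat-muscle line (F), obtained by divergent selection on muscle fat over 3 generations. From first feeding and for 6 months, fish of each line received a low-energy diet (LE, 10% lipids) or a high-energy diet (HE, 23% lipids), which gave 4 groups named by line and diet (F-LE, F-HE, L-LE, L-HE) with 8 livers each, 1 liver per nylon array. Every fish thus came from a selected line and no unselected fish was included. Each group was held in 3 tanks. The number that follows the group name in a sample's label was taken here to be its tank. On that reading 2 or 3 livers were analysed per tank. Diet was given to a tank, so the livers of a tank shared it. Values are the log2 of the 33P signal of a clone over the median of its array.

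Aspartate aminotransferase exchanges an amino group between glutamate and oxaloacetate, and its mitochondrial form works with malate dehydrogenase in the malate-aspartate shuttle, which carries reducing equivalents into mitochondria. Cytoplasmic malate dehydrogenase interconverts malate and oxaloacetate. Pyruvate carboxylase, a biotin enzyme, makes oxaloacetate from pyruvate and so feeds gluconeogenesis, the citric acid cycle and the citrate used for fatty acid synthesis. 4-Aminobutyrate aminotransferase passes the amino group of GABA to 2-oxoglutarate and forms glutamate. In carnivorous fish such as trout, amino acids are a main fuel and a main source of glucose in liver.

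The annotation of the clones rests on similarity of their cDNA sequence to proteins of other species. The best protein matches were pig and mouse mitochondrial aspartate aminotransferase for the respective GOT2 clones, pig 4-aminobutyrate aminotransferase, human pyruvate carboxylase and chicken cytoplasmic malate dehydrogenase. The GOT2 clones fall in different sequence clusters, and the assembled transcript that holds tcad0005.c.22 carries a description other than GOT2. A cDNA spot can also bind transcripts of near-identical gene copies, so each value is that of a clone rather than of a single gene. The primers that the study designed on the sequences of tcad0005.c.22 (got) and of the malate dehydrogenase clone (mdh) are given 5′ to 3′ because they show which transcripts those spots were taken to represent; each is 20 bases long and no base is marked.
got forward: ttgtgtccgcaaggcagagg
got reverse: cagagcgcaggacttggtga
mdh forward: cccactcctcagagaggtca
mdh reverse: tggctgcgatcagacagttg

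One F-HE array, membrane 59, stood apart before any comparison. Its median Spearman correlation with the other arrays was 0.161, against 0.908 to 0.967 for 26 arrays and 0.828 to 0.896 for membranes 62 (F-LE), 65 (F-HE), 68, 53 and 56 (L-LE). The median log10 value of its control spots was 0.214, against 1.72 to 2.29 on the other arrays. The main results are therefore also given without membrane 59 or without all 6 arrays of low correlation. Of 8 clones for secreted hepatocyte proteins, the mean level per liver lay between 3.99 and 5.15 on the log2 scale on the 31 other arrays and was 0.48 on membrane 59. On those 31 arrays the mean of the 2 muscle clones lay between 3.02 and 4.39 and that of the 3 red cell clones between 0.25 and 1.28. The muscle marker parvalbumin (PRVA) was called lower on HE by limma, with a log2 difference of -0.53 (SE 0.12, adjusted p = 0.0709), and also without membrane 59 (-0.54, adjusted p = 0.0301) and without the arrays of low correlation (-0.39, adjusted p = 0.0815). The other muscle clone, titin, differed between diets by -0.31 (SE 0.41), by 0.06 without membrane 59 and by -0.28 without the arrays of low correlation. Its values nearly matched those of the pyruvate carboxylase clone (Spearman correlation 0.986, detailed below). The titin clone, and the muscle mean that includes it, are thus not a readout separate from that clone. The red cell marker ERMAP differed by -0.76 (SE 0.19, adjusted p = 0.165) and was called lower on HE without membrane 59 (-0.66, adjusted p = 0.116) and without the arrays of low correlation (-0.89, adjusted p = 0.000325). The red cell marker B3AT went the other way, with 0.35 (SE 0.19), 0.47 and 0.44 for the same 3 choices of arrays. RHAG, also a red cell marker, was at 0.03 (SE 0.16), -0.08 and 0.002. Of the hepatocyte clones none was called, and the line estimate was lower in F in 8 of 8 (median -0.48), in 6 of 8 without membrane 59 (median -0.25) and in 5 of 8 without the arrays of low correlation (median -0.28). Over all clones the share lower in F was 48.8%, 51.5% and 51.8% for the same choices of arrays. The part of other cells in the members' differences was not tested. In whole liver, fewer cells of a type and less RNA per cell cannot be told apart.

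F-LE livers held the highest mean of 4 of the 5 clones: both GOT2 clones, 4-aminobutyrate aminotransferase and malate dehydrogenase. That place was the same with membrane 59 left out and with all 6 arrays of low correlation left out. Pyruvate carboxylase was different, with its highest mean in L-LE under each of these choices of arrays. The 4 clones came from the study's list of line differences, all higher in F. Pyruvate carboxylase came from its list of diet differences, lower on HE. The order of the groups thus partly restates that selection and is not independent evidence. The share of all clones with their highest mean in F-LE was not computed. None of the differences passed the test over all clones, as detailed below.

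**Figure D1:**
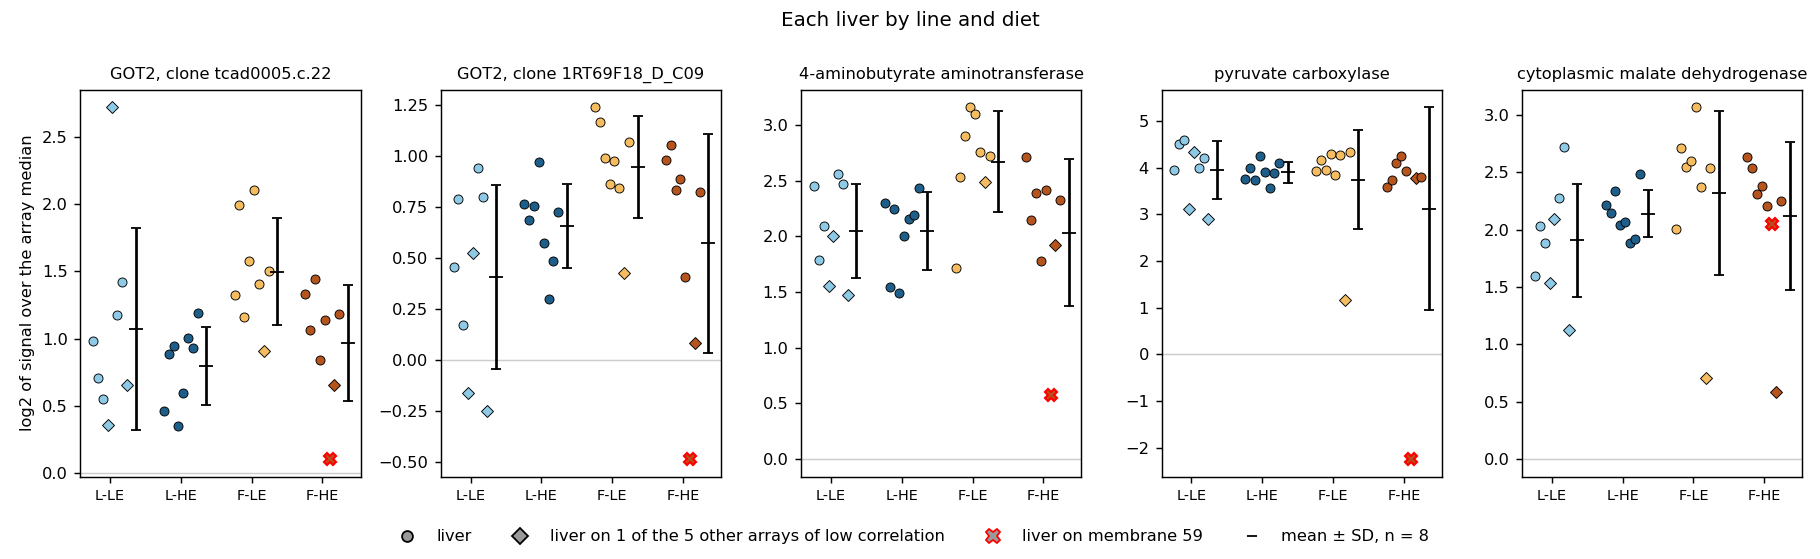
Log2 of the signal over the array median (y axis, a separate range in each panel) for each liver, by group (x axis), for the 5 clones. Circles are livers, diamonds are livers on 5 arrays of low correlation, the red cross is membrane 59, and bars are mean ± SD (n = 8); F-LE has the highest mean in every panel except that of pyruvate carboxylase, where membrane 59 lies at -2.25.

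GOT2 clone tcad0005.c.22 had its highest mean log2 level in F-LE, at 1.50 ± 0.40 (SD, n = 8), followed by 1.07 ± 0.75 in L-LE, 0.97 ± 0.43 in F-HE and 0.80 ± 0.29 in L-HE. The lowest, median and highest livers were at 0.36, 0.84 and 2.72 in L-LE and at 0.35, 0.91 and 1.19 in L-HE. They were at 0.91, 1.45 and 2.10 in F-LE and at 0.11, 1.10 and 1.44 in F-HE. The groups overlapped, and the wide spread in L-LE came from a single liver, that on membrane 56 at 2.72, since the next highest was at 1.42. The lowest F-HE liver was the one on membrane 59, at 0.11.

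For GOT2 clone tcad0005.c.22 the log2 level was lower on HE than on LE by 0.40 on average over both lines (limma, SE 0.17, 95% interval of the difference -0.75 to -0.05, a 1.32-fold difference). The unadjusted p was 0.0269 and the adjusted p was 1, so the difference was not called. It was -0.34 (SE 0.16, adjusted p = 0.667) without membrane 59. Within the F line the log2 difference between diets was -0.53 (two-sided exact permutation test on 8 against 8 livers, p = 0.021). It was -0.40 without membrane 59 (exact p = 0.0437), and 2 of those 7 F-HE livers lay below every F-LE liver. With tank means in place of livers it was -0.56 (exact p = 0.2, where 3 against 3 tanks allow no p below 0.1). Within the L line it was -0.28 (exact p = 0.41), and -0.04 without the single L-LE liver on membrane 56 (exact p = 0.816). The line by diet interaction was -0.25 (SE 0.35, 95% interval -0.96 to 0.45), so the diet difference was not shown to differ between the lines. The interaction was -0.13 (SE 0.33) without membrane 59, and with each liver left out in turn it ran from -0.49 to -0.13.

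Between the lines, GOT2 clone tcad0005.c.22 was higher in F than in L by 0.30 on the log2 scale (SE 0.17, limma adjusted p = 0.999). Without membrane 59 the difference was 0.36 (SE 0.16, adjusted p = 0.905). Without all 6 arrays of low correlation it was 0.49 (SE 0.12, adjusted p = 0.22), a 1.41-fold difference whose 95% interval was 0.25 to 0.74, and this was the lowest adjusted p of a member's line difference among these 3 fits. On the LE diet alone the log2 difference was 0.43 (exact p = 0.178) and without the arrays of low correlation 0.61 (exact p = 0.0152, 7 against 5 livers). The high L-LE liver on membrane 56 is one of the livers left out in that last value: with that single liver removed, the difference was 0.66 (exact p = 0.00699). Leaving out each of the 16 livers in turn gave differences of 0.33 to 0.66 with exact p of 0.00699 to 0.306. The exact p was under 0.05 for only 1 of the 16, the removal of membrane 56.

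GOT2 clone 1RT69F18_D_C09 had a mean log2 level of 0.95 ± 0.25 (SD, n = 8) in F-LE, followed by 0.66 ± 0.20 in L-HE, 0.57 ± 0.54 in F-HE and 0.41 ± 0.45 in L-LE. The lowest, median and highest livers were at -0.25, 0.49 and 0.94 in L-LE and at 0.30, 0.71 and 0.97 in L-HE. They were at 0.43, 0.98 and 1.24 in F-LE and at -0.48, 0.83 and 1.05 in F-HE. F-LE and L-LE overlapped, but 5 of the 8 F-LE livers lay above every L-LE liver. The lowest livers outside L-HE were again on arrays of low correlation: membranes 68 and 53 in L-LE, 62 in F-LE, and 59 and 65 in F-HE.

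On the LE diet, GOT2 clone 1RT69F18_D_C09 was higher in F than in L by 0.54 on the log2 scale (95% interval 0.14 to 0.93, a 1.45-fold difference). The exact permutation test on the livers gave p = 0.00948, while the limma p adjusted over all clones was 0.962. Leaving out each of the 16 livers in turn gave differences of 0.44 to 0.61 with exact p of 0.00326 to 0.0214. Without the arrays of low correlation the difference was 0.39 (exact p = 0.00758, 7 against 5 livers). All 3 F-LE tank means, at 0.88 to 1.03, lay above the 3 L-LE tank means, at 0.18 to 0.64 (exact p = 0.1, the smallest that 3 against 3 tanks allow). On the HE diet the difference between lines was -0.08 (exact p = 0.709), and without membrane 59 it was 0.07 (exact p = 0.654).

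Averaged over the diets, the log2 difference between lines for GOT2 clone 1RT69F18_D_C09 was 0.23 (SE 0.14, limma adjusted p = 0.999), and 0.30 without membrane 59 (SE 0.12, adjusted p = 0.893). Averaged over the lines, its diet difference was -0.06 (SE 0.14, 95% interval -0.34 to 0.22), which turned to 0.013 without membrane 59. The interaction was -0.62 (SE 0.28, unadjusted p = 0.031, adjusted p = 0.548), moved to -0.47 without membrane 59 and to -0.22 (SE 0.18) without the arrays of low correlation. Within the F line the diet difference was -0.37 (exact p = 0.0887), then -0.22 (exact p = 0.18) without membrane 59 and -0.19 (exact p = 0.0839) without the arrays of low correlation. Within the L line it was 0.25 (exact p = 0.18) and 0.03 (exact p = 0.856) without the arrays of low correlation.

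The mean of both GOT2 clones per liver averaged 1.22 ± 0.29 (SD, n = 8) in F-LE, against 0.77 ± 0.46 in F-HE, 0.74 ± 0.52 in L-LE and 0.73 ± 0.13 in L-HE. Without membrane 59 the F-HE mean was 0.91 ± 0.28 (n = 7). The L-HE livers were the tightest, between 0.58 and 0.96, and every F-LE liver except that on membrane 62 (0.67) lay above all of them. These values are given as a description, without a p-value, because the clones were chosen with their results known. The exact p-values of single clones, above and below, carry the same limit and are not adjusted.

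4-Aminobutyrate aminotransferase (clone 1RT38G10_C_D05) had a mean log2 level of 2.67 ± 0.45 (SD, n = 8) in F-LE, against 2.05 ± 0.42 in L-LE, 2.04 ± 0.35 in L-HE and 2.03 ± 0.66 in F-HE. Without membrane 59 the F-HE mean was 2.24 ± 0.32 (n = 7). The lowest, median and highest livers were at 1.48, 2.05 and 2.56 in L-LE and at 1.49, 2.17 and 2.43 in L-HE. They were at 1.72, 2.74 and 3.16 in F-LE and at 0.58, 2.24 and 2.71 in F-HE. L-LE and L-HE covered almost the same range, and 5 of the 8 F-LE livers lay above every L-LE liver. A single F-LE liver, on membrane 5 at 1.72, lay among the lower livers of the L line.

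For 4-aminobutyrate aminotransferase the log2 difference between lines on the LE diet was 0.62 (95% interval 0.14 to 1.11, a 1.54-fold difference, exact p = 0.0168). The limma adjusted p was 0.962. Leaving out each liver in turn gave 0.54 to 0.76 with exact p of 0.00202 to 0.0323, but without the arrays of low correlation, which leaves 7 F-LE and 5 L-LE livers, the difference was 0.43 with an exact p of 0.121. The tank means were 2.37 to 3.13 in F-LE and 1.78 to 2.37 in L-LE and overlapped (exact p = 0.2). On the HE diet the difference between lines was -0.01 (exact p = 0.971), and 0.20 without membrane 59 (exact p = 0.275).

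Within the F line, 4-aminobutyrate aminotransferase was at a lower level on HE than on LE, with a log2 difference of -0.64 (exact p = 0.0295). Without membrane 59 it was -0.43 (exact p = 0.0589), which is above the threshold of 0.05. The 3 F-HE tank means, at 1.59, 2.29 and 2.32, lay below the 3 F-LE tank means (exact p = 0.1, the smallest possible), and the tank that held membrane 59 was at 2.09 without it. Within the L line the diet difference was -0.003 (exact p = 0.988), and -0.23 without the arrays of low correlation (exact p = 0.27). Over both lines the diet difference was -0.32 (SE 0.17, limma adjusted p = 1) and over both diets the line difference was 0.31 (SE 0.17, adjusted p = 0.999). Without membrane 59 these were -0.22 (SE 0.14, adjusted p = 0.731) and 0.41 (SE 0.14, adjusted p = 0.726). The interaction was -0.63 (SE 0.34, adjusted p = 0.548) with all arrays, -0.42 (SE 0.28) without membrane 59 and -0.18 (SE 0.29) without the arrays of low correlation.

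**Figure D2:**
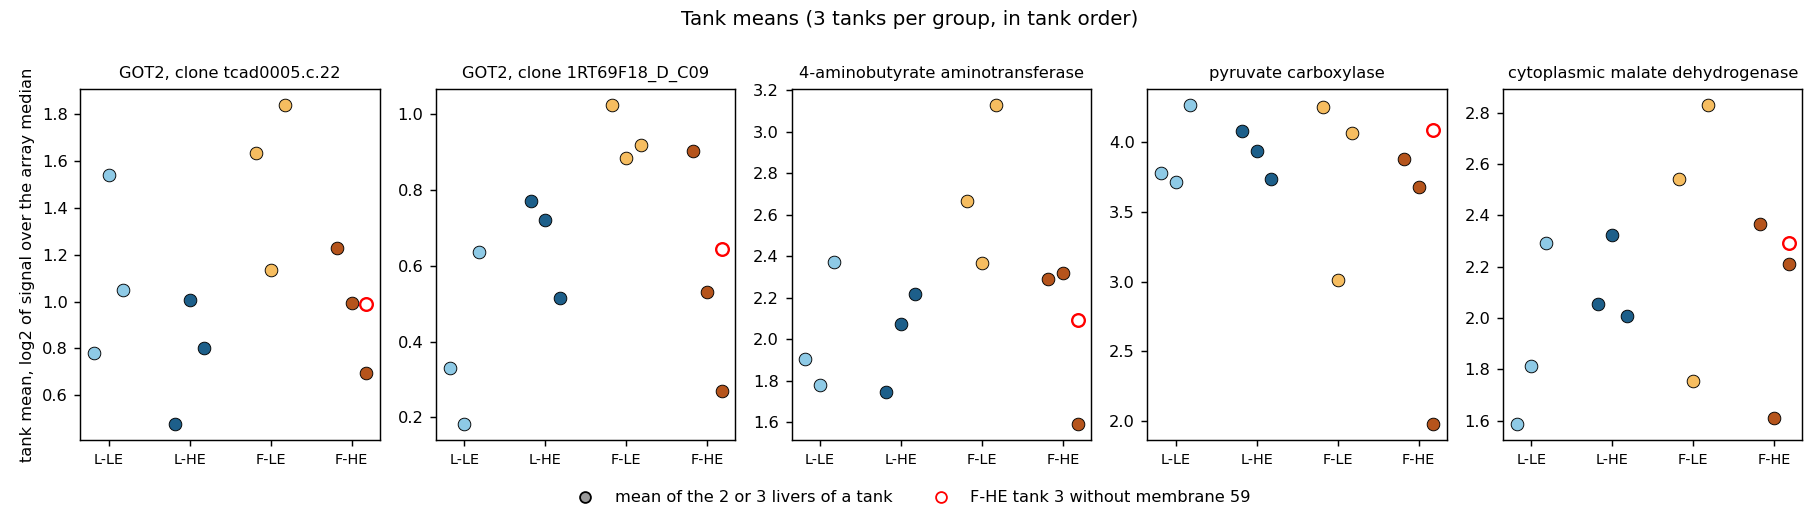
Mean log2 of the signal over the array median for each of the 3 tanks per group (y axis, a separate range in each panel), by group (x axis); filled points are means of 2 or 3 livers and the open red circle is F-HE tank 3 without membrane 59. For GOT2 clone 1RT69F18_D_C09 the F-LE tanks at 0.88 to 1.03 lie above the L-LE tanks at 0.18 to 0.64.

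Pyruvate carboxylase (clone 1RT75M17_A_G09) had a mean log2 level of 3.95 ± 0.63 (SD, n = 8) for L-LE, then 3.90 ± 0.22 for L-HE, 3.74 ± 1.06 for F-LE and 3.12 ± 2.18 for F-HE. Membrane 59 alone made the F-HE mean low: it was at -2.25 and the other 7 F-HE livers lay between 3.59 and 4.26, with a mean of 3.88 ± 0.23. The large SD in F-LE likewise came from membrane 62, at 1.16, while the other 7 livers lay between 3.84 and 4.33. In L-LE the livers on membranes 68 and 53, at 2.90 and 3.12, lay below the other 6, which ranged from 3.95 to 4.60. L-HE, which held no array of low correlation, ranged from 3.57 to 4.26.

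The log2 diet difference for pyruvate carboxylase was -0.34 (SE 0.42, limma adjusted p = 1), and without membrane 59 it turned to 0.045 (SE 0.22, adjusted p = 0.952). Without all 6 arrays of low correlation it was -0.28 (SE 0.10, 95% interval -0.48 to -0.09, unadjusted p = 0.00661, adjusted p = 0.356). In those 26 arrays the LE means were 4.25 ± 0.29 for L (n = 5) and 4.11 ± 0.20 for F (n = 7), and the HE means were 3.90 ± 0.22 for L (n = 8) and 3.90 ± 0.25 for F (n = 6). The HE means were thus below the LE means in both lines, with log2 differences of -0.35 in L (exact p = 0.0311) and -0.21 in F (exact p = 0.111). The size of the difference in L also depended on the arrays. With all L livers it was -0.05 (limma, SE 0.59). The direction of the diet difference in the F line depended on the arrays: it was -0.63 with all 16 livers (exact p = 0.486) and 0.14 without membrane 59 (exact p = 0.976). Between the lines the difference was -0.49 (SE 0.42, adjusted p = 0.999), -0.11 without membrane 59 and -0.07 (SE 0.10) without the arrays of low correlation.

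Malate dehydrogenase (clone 1RT158K12_C_F06) had a mean log2 level of 2.32 ± 0.71 (SD, n = 8) in F-LE, followed by 2.14 ± 0.20 in L-HE, 2.12 ± 0.65 in F-HE and 1.91 ± 0.49 in L-LE. The lowest, median and highest livers were at 1.13, 1.96 and 2.72 in L-LE and at 1.89, 2.11 and 2.49 in L-HE. They were at 0.71, 2.54 and 3.07 in F-LE and at 0.58, 2.28 and 2.64 in F-HE. The groups overlapped throughout. The low ends were membranes 68 in L-LE, 62 in F-LE and 65 in F-HE. Membrane 59, at 2.05, did not stand out for this clone.

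For malate dehydrogenase the line difference was 0.20 on the log2 scale (SE 0.19, limma adjusted p = 0.999) and the same 0.20 without membrane 59. Without the arrays of low correlation it was 0.35 (SE 0.11, 95% interval 0.12 to 0.58, unadjusted p = 0.00447, adjusted p = 0.511). On those arrays the difference was 0.45 on the LE diet (exact p = 0.0694) and 0.25 on the HE diet (exact p = 0.035), against 0.41 (exact p = 0.204) and -0.02 (exact p = 0.975) with all livers. The diet difference was 0.02 (SE 0.19, 95% interval -0.37 to 0.40) and its sign turned under other choices of scaling and arrays. The interaction was -0.43 (SE 0.38, adjusted p = 0.571) and -0.20 (SE 0.22) without the arrays of low correlation.

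Counted over the members, none of the 5 clones was called for diet, line or their interaction by limma at an adjusted p under 0.15, the false discovery rate of the study's methods. At that threshold 0.245% of all clones were called for diet, 0% for line and 0% for the interaction. At an unadjusted p under 0.05, 1 of the 5 passed for diet (tcad0005.c.22), none for line and 1 for the interaction (1RT69F18_D_C09), where the shares of all clones were 3.65%, 3.32% and 6.74%. The two-way test of the study's methods at p under 0.01, fitted to the same values, called no member for any of these, against 1.11%, 0.683% and 0.683% of all clones. Without membrane 59 it called 4-aminobutyrate aminotransferase for line, where 1.31% of all clones passed. Without membrane 59, limma passed 3 of the 5 for line at an unadjusted p under 0.05 (both GOT2 clones and 4-aminobutyrate aminotransferase), against 5.37% of all clones, and 1 for diet (tcad0005.c.22), against 7.45%. At an adjusted p under 0.15 it then called no member, against 0.0129% of all clones for line and 0.528% for diet. The members were taken from lists that the study made in this experiment. Neither their direction nor a share above that of all clones is therefore independent evidence. The methods describe fewer livers per group on arrays than were deposited, and the sources do not say which of the livers here entered the lists.

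Among the contrasts between single groups, no member was called at an adjusted p under 0.15 in any of the 4, where the share of all clones was 0% in 3 and 0.0515% for diet in the F line. At an unadjusted p under 0.05, limma passed 2 of 5 members for line on the LE diet (1RT69F18_D_C09 and 4-aminobutyrate aminotransferase), against 4.23% of all clones, and the two-way test at p under 0.01 called 1RT69F18_D_C09 there, against 0.863%. Without membrane 59 the two-way test called both, against 2.24%. For a pair of groups that test was a contrast within the two-way fit, which the study's methods do not describe. Limma passed 2 of 5 for diet in the F line (tcad0005.c.22 and 4-aminobutyrate aminotransferase), against 4.5%. None passed for line on the HE diet or diet in the L line, against 5.55% and 5.56%. Of the 20 exact tests of single members, 4 gave an unadjusted p under 0.05, and these were the same 4 differences. The contrasts of line on LE and of diet in F share the F-LE livers, which were the highest group, and are therefore not separate observations. Because the members came from the study's lists, a share above that of all clones is not independent evidence here either.

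Without the 6 arrays of low correlation, 4 of the 5 members had an unadjusted p under 0.05 for line (both GOT2 clones, 4-aminobutyrate aminotransferase and malate dehydrogenase), against 7.25% of all clones. Their log2 differences were 0.28 to 0.49, all higher in F. For diet 3 of 5 passed (tcad0005.c.22, 4-aminobutyrate aminotransferase and pyruvate carboxylase), against 6.7%, with differences of -0.31 to -0.28. None was called at an adjusted p under 0.15, where 0.0259% of all clones were called for line and 0.96% for diet. The median member difference was 0.34 for line and -0.28 for diet, and the median of all clones was -0.006 and -0.018. Selection from the study's lists for diet or line favours such an excess over all clones, so it is not independent evidence.

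**Figure D3:**
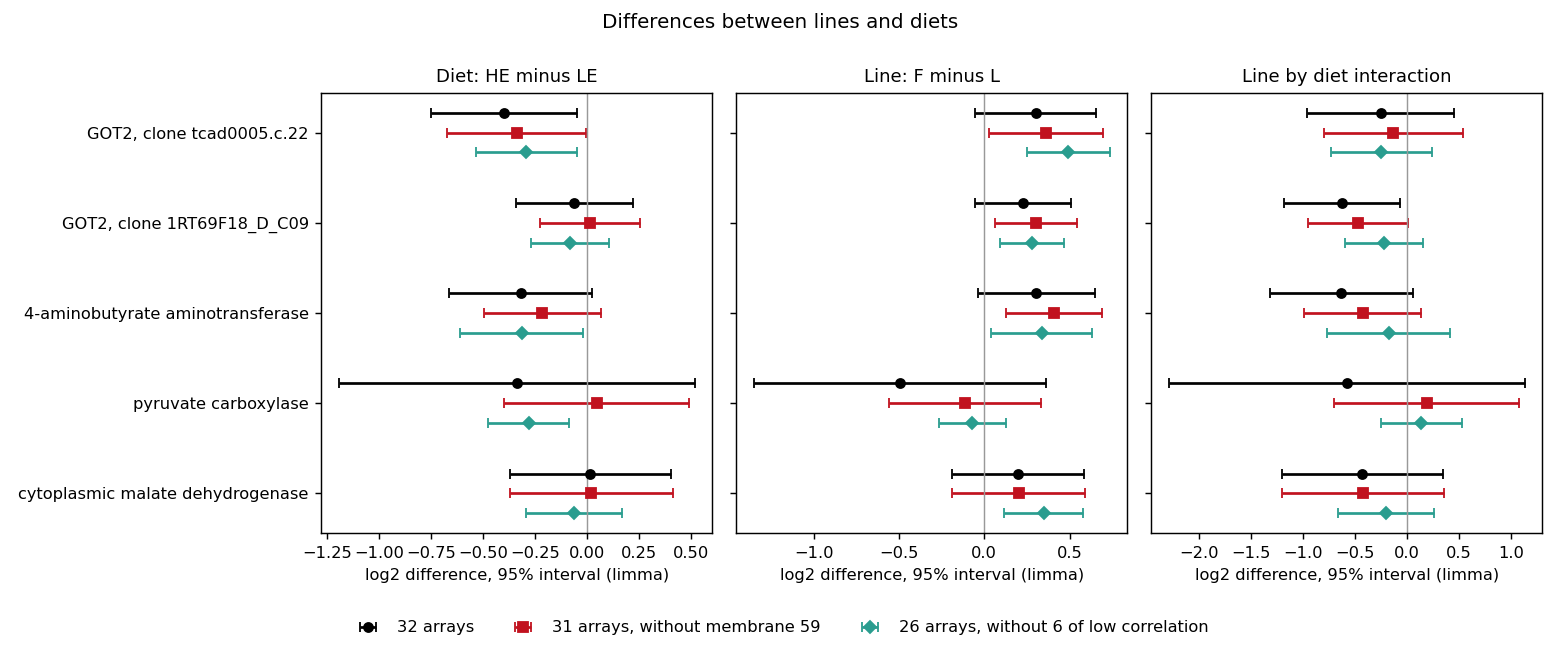
Log2 differences (x axis) for diet, line and their interaction, with 95% intervals from limma, for the 5 clones (y axis). Black circles use 32 arrays, red squares 31 without membrane 59 and green diamonds 26 without the arrays of low correlation; the interval of pyruvate carboxylase for diet runs from -1.19 to 0.52 with all arrays and from -0.48 to -0.09 with 26.

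Described beside the members were 10 other clones on the study's lists. They stand for enzymes and transporters of amino acid, GABA and biotin metabolism, and also for uricase, of purine metabolism, and iron regulatory protein 1/cytosolic aconitase. None was called for diet, line or the interaction with all arrays. For diet the estimate was lower on HE in 9 of 10, against 52.9% of all clones, with a median of -0.21 against -0.01 over all clones. For line it was higher in F in 8 of 10 and lower in 2, where 48.8% of all clones were lower. The median was 0.06 against 0.005. Without membrane 59 the medians were -0.13 and 0.13. Without the arrays of low correlation they were -0.32 and 0.18. For line 6 of 10 were then higher in F and 4 lower, where 51.8% of all clones were lower. The 10 clones were taken from lists that the study made in this experiment, so their direction is not independent evidence. The GABA-forming enzyme glutamate decarboxylase (DCE1) differed by 0.003 between diets (SE 0.16) and by 0.06 between lines (SE 0.16). Without membrane 59 these turned to -0.06 and -0.010, and without the arrays of low correlation to -0.10 (SE 0.08) and -0.24 (SE 0.08, limma unadjusted p = 0.00413, adjusted p = 0.511). The GABA transporter S6A11 differed by -0.17 between diets (SE 0.12) and by 0.008 between lines (SE 0.12). Without the arrays of low correlation these were -0.34 (SE 0.09) and -0.11 (SE 0.09), and its line difference was 0.04 without membrane 59. AADAT, another aminotransferase, which acts on kynurenine and aminoadipate, differed by 0.36 between lines (SE 0.14, limma unadjusted p = 0.0154, adjusted p = 0.999), and by 0.29 (SE 0.13) without membrane 59. Biotinidase (BTD), which recycles the cofactor of pyruvate carboxylase, differed by -0.81 between diets (SE 0.37), and by -0.46 (SE 0.17, adjusted p = 0.563) without membrane 59.

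Whether the members varied together from liver to liver within groups depended on the arrays kept. Over the 31 arrays without membrane 59, after removal of group means, all 10 pairs of members had a Spearman correlation above 0, from 0.01 to 0.64 with a median of 0.39. The strongest were malate dehydrogenase with GOT2 clone 1RT69F18_D_C09 (0.64) and with GOT2 clone tcad0005.c.22 (0.63). The GOT2 clones correlated with each other at 0.32 (Pearson 0.37). In the 26 arrays left after removal of those of low correlation, 5 of 10 pairs stayed above 0, the median was 0.005, and the GOT2 clones correlated at 0.03. Malate dehydrogenase had values of 0.47 to 0.51 with both GOT2 clones and with 4-aminobutyrate aminotransferase, whereas pyruvate carboxylase had values of -0.48 to -0.02 with the 4 other members. All these points share the array, its median scaling and its quality, and the correlations are descriptions.

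Array quality moved with the members. Over the same 31 arrays the Spearman correlation between a clone's level and its array's median correlation with the others was 0.74 for malate dehydrogenase, 0.64 for GOT2 clone 1RT69F18_D_C09, 0.60 for pyruvate carboxylase, and 0.34 each for GOT2 clone tcad0005.c.22 and 4-aminobutyrate aminotransferase. L-LE held 3 of the 6 arrays of low correlation, F-HE 2, F-LE 1 and L-HE none. The part of array quality in the differences between groups was examined only by leaving those arrays out, as given above, and by limma with array weights. Membrane 59 then had a weight of 0.0268, where the highest weight was 2.64. With these weights the line differences were 0.41 for tcad0005.c.22, 0.29 for 1RT69F18_D_C09 and 0.40 for 4-aminobutyrate aminotransferase. They were 0.31 for malate dehydrogenase and -0.06 for pyruvate carboxylase, and none was called (limma adjusted p from 0.279 to 0.938).

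Among the 312 other tested clones on the study's lists, the one most like each member across the 31 arrays was found by Spearman correlation within groups. For GOT2 clone tcad0005.c.22 the nearest were malate dehydrogenase (0.63), 8-oxo-dGTPase, which clears oxidised nucleotides (0.63), and cytosolic acetyl-CoA acetyltransferase, which starts sterol synthesis (0.62). For GOT2 clone 1RT69F18_D_C09 they were the vesicle proteins Rab-3A (0.76) and Doc2-beta (0.74) and ubiquitin-conjugating enzyme E2 E1 (0.70). For 4-aminobutyrate aminotransferase they were Rab-32 (0.82), glucose transporter GTR11 (0.72) and the phosphodiesterase GDPD5 (0.69). For malate dehydrogenase they were prolactin (0.82), hepatocyte growth factor activator (0.76) and a subunit of the vacuolar proton pump (0.76). Median correlations over all the listed clones were 0.11 to 0.20. Without the arrays of low correlation the same pairs, in the order given, had other values. They were 0.47, 0.80 and 0.61 for tcad0005.c.22 and 0.44, 0.59 and 0.53 for 1RT69F18_D_C09. They were 0.86, 0.69 and 0.62 for 4-aminobutyrate aminotransferase and 0.66, 0.61 and 0.74 for malate dehydrogenase. The part of array quality in these correlations was not tested further.

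Pyruvate carboxylase had a closer match on the array than the other members. Its Spearman correlation with the titin clone 1RT75K17_A_F09 was 0.986 (Pearson 0.995), the highest among 7762 tested clones, where the next was 0.897 and the median was -0.006. Titin is a giant spring protein of the muscle sarcomere. The log2 values of the 2 clones differed by -0.16 to 0.25 on the 32 arrays, with an SD of the difference of 0.08, although the pyruvate carboxylase values themselves ran from -2.25 to 4.60. On membrane 59 the titin clone was at -2.09. The names of both clones carry the same library plate (1RT75), and 25 other tested clones of that plate had correlations with pyruvate carboxylase from -0.08 to 0.82 with a median of 0.49. The titin clone was 1 of the 2 muscle markers; the other, parvalbumin, was at 3.90 on membrane 59 and within 3.39 to 5.09 elsewhere. The identity of the cDNA in either spot was not tested.

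**Figure D4:**
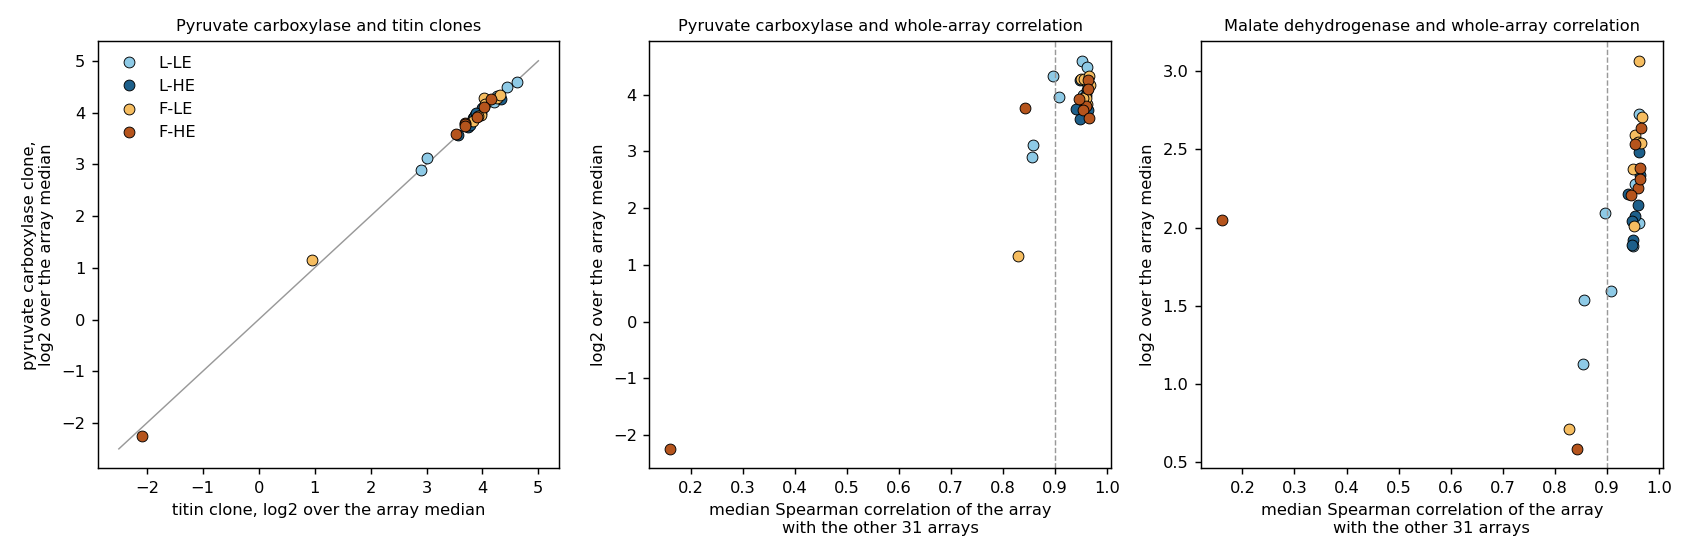
Left, log2 signal over the array median of the pyruvate carboxylase clone (y axis) against the titin clone (x axis) on the 32 arrays, coloured by group, with the line of equal values; the clones differ by -0.16 to 0.25. Middle and right, log2 levels of pyruvate carboxylase and malate dehydrogenase (y axes) against the median Spearman correlation of the array with the others (x axis; dashed line at 0.9), where membrane 59 is the point at 0.161.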

How the data were processed

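Liver RNA of 32 trout was hybridised, 1 liver per array, to nylon cDNA arrays with a 33P label. The authors quantified spots with AGScan and normalised in BASE: they excluded spots with a weak vector oligonucleotide signal, corrected for the DNA in the spot, divided by the array median and deposited log10 values. The correction and scaling leave only levels relative to the array. A bare 0 in the deposited table was read as an excluded spot (41354 cells). Values were converted to log2. limma 3.58.1 (R 4.3.3) fitted 1 mean per group to the 7763 clones with at least 5 values per group, with Benjamini-Hochberg adjustment over all of them and calls at an adjusted p under 0.15. limma was tested on simulated data with a line effect and independent normal noise. That simulation held no array of low correlation, so it cannot show how the fit behaves with such arrays. The limma p-values given above rest on the spread between livers, moderated over all clones. They treat the livers of a tank as independent, although diet was given per tank and each group had its own tanks. This limit holds for line differences as well as for diet differences. Two-sided exact permutation tests (Python 3.11.15, scipy 1.17.1) compared 2 groups for single clones, unadjusted. Except where tank means are named, they also treat the livers of a tank as independent. The two-way test of the study's methods was run as an alternative, with contrasts between single groups added here. SAM was not run.

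The named clones were the 5 members, 10 clones of related metabolism, the marker clones, and for each member the 3 listed clones with the highest correlation. Members, lists and tests were chosen with earlier results of these data known. Replicate numbers followed accession order. Alternatives covered scaling, filters, the error model, tanks, and left-out arrays; leaving the 6 arrays of low correlation (median Spearman correlation under 0.9) out of the exact tests and correlations was added after seeing the data. The number of arrays limits the precision. Sequences of the clones were not used here.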

Additional observations from a re-analysis of the deposited data

Results flagged for a closer look

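Of 20 combinations of a member and a group, 7 held a liver far from the other 7 of its group (a gap to the nearest liver, as a share of the range of the group, that chance gives in about 1 group in 20). In pyruvate carboxylase the lowest F-HE value, -2.25 on membrane 59, lay below the next at 3.59 (gap 0.897 of the range), and the lowest F-LE value, 1.16 on membrane 62, lay below the next at 3.84 (0.847). In malate dehydrogenase the lowest F-HE value was 0.58 on membrane 65, with the next at 2.05 (0.713), and the lowest F-LE value was 0.71 on membrane 62, with the next at 2.01 (0.551). In 4-aminobutyrate aminotransferase the lowest F-HE value was 0.58 on membrane 59, with the next at 1.77 (0.561), and the lowest F-LE value was 1.72 on membrane 5, with the next at 2.49 (0.534). In GOT2 clone tcad0005.c.22 the highest L-LE value was 2.72 on membrane 56, with the next at 1.42 (0.551). Membrane 5 was the only one of these arrays that was not of low correlation. How often such gaps occur over all clones was not computed, so the count is not shown to be particular to these members.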

How the results depend on the processing

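Of 441 values recomputed under other settings (each left-out liver apart), 400 kept their direction and side of the threshold or moved by less than the spread. For a member's limma difference this asked only that the sign held and that it stayed uncalled, whatever its size. The line difference of pyruvate carboxylase thus counted as kept although it moved from -0.49 to -0.07 without the arrays of low correlation. The count is therefore no measure of stable size. No member was called by limma under any setting, including means per tank. A contrast within the two-way fit at p under 0.01 called 1 member for line on the LE diet, or 2 without membrane 59. In all, 67 of 7763 and 174 of 7759 clones passed. Without membrane 59 the two-way test called 1 member for line (4-aminobutyrate aminotransferase, 0.409). Without membrane 59 the diet difference turned to 0.0129 for GOT2 clone 1RT69F18_D_C09 and to 0.0448 for pyruvate carboxylase in both tests. The malate dehydrogenase diet difference became -0.0534 with quantile normalization, -0.041 with means per tank, -0.0769 with array weights and -0.0627 without the arrays of low correlation. The interaction of pyruvate carboxylase became 0.19 without membrane 59 (both tests), 0.0631 with array weights and 0.141 without the arrays of low correlation, and its diet difference in F became 0.14 without membrane 59. For line on HE, clone 1RT69F18_D_C09 turned to 0.0668 without membrane 59 and 0.174 without the arrays of low correlation. There 4-aminobutyrate aminotransferase turned to 0.197, 0.249 and, with means per tank, 0.0534. Without the arrays of low correlation, line on HE was 0.000914 for pyruvate carboxylase and 0.248 for malate dehydrogenase, and the correlation of the GOT2 clones was 0.0284. The cause of these changes was not tested. Array weights called 3 of the 10 related clones, which came from the study's lists, for diet and 1 for line, against 104 and 12 of all 7763 clones.

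Leaving out each liver in turn, the averaged diet difference ran from -0.11 to 0.0129 for clone 1RT69F18_D_C09, from -0.523 to 0.0448 for pyruvate carboxylase and from -0.0999 to 0.125 for malate dehydrogenase, and the interaction of pyruvate carboxylase from -0.946 to 0.19. For diet in L the ranges were -0.0852 to 0.0758 for 4-aminobutyrate aminotransferase and -0.2 to 0.0428 for pyruvate carboxylase. For diet in F they were -0.996 to 0.14 for pyruvate carboxylase and -0.43 to 0.0194 for malate dehydrogenase. For line on HE they were -0.153 to 0.0668 for clone 1RT69F18_D_C09, -0.108 to 0.197 for 4-aminobutyrate aminotransferase and -0.0933 to 0.2 for malate dehydrogenase, and for line on LE -0.357 to 0.163 for pyruvate carboxylase. The exact test of 4-aminobutyrate aminotransferase for diet in F missed 0.05 without any 1 of 5 livers (membranes 59, 14, 54, 40 and 24, exact p 0.0507 to 0.062). Without membrane 62, exact p fell under 0.05 for malate dehydrogenase on LE (difference 0.641, exact p = 0.0129) and for clone 1RT69F18_D_C09 in F (-0.448, exact p = 0.0379). Without membrane 8 it did so for the latter (-0.442), and without membrane 66 for malate dehydrogenase in L (0.347). No paired analysis was possible because the replicate numbers only follow accession order; tank numbers as a block changed no call of a member.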

Other observations

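Without the 6 arrays of low correlation, 3 clones of the related metabolism passed an adjusted p under 0.15 (limma), 2 of 10 for diet, where 0.96% of all clones passed, and 1 of 10 for line, where 0.0259% passed. D-3-phosphoglycerate dehydrogenase (SERA), the first enzyme of serine synthesis, was lower on HE by 0.43 on the log2 scale (a difference of -0.43, SE 0.11, adjusted p = 0.0729), and the GABA transporter S6A11 by 0.34 (a difference of -0.34, SE 0.09, adjusted p = 0.147). With all arrays those differences were -0.30 and -0.17. Betaine-homocysteine methyltransferase (BHMT), which remethylates homocysteine, was higher in F by 0.48 (SE 0.10, adjusted p just under 0.15). It was 0.38 (SE 0.20) with all arrays. The 10 clones were taken from lists that the study made in this experiment, so a share above that of all clones is not independent evidence.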
